A study of Mus musculus with 2 samples.

Results

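The interferon-induced macrophages described here were single cells of a mouse tumor that carried both macrophage transcripts and transcripts of genes switched on by interferon. They were selected on raw unique molecular identifier counts (UMIs, each standing for 1 captured transcript molecule). A cell had to hold at least 10 UMIs of C1qa, C1qb and C1qc together, the complement chains typical of tissue macrophages, and at least 10 UMIs of Rsad2, Ifit1, Ifit2 and Ifit3 together. It also had to hold under 3 UMIs of the cycling genes Mki67 and Top2a together and no UMI of Cd3d, Cd3e or Cd3g, the CD3 chains of T cells. This left 80 cells of the MWA library and 124 cells of the MWA plus TIGIT library, 204 of the 7093 cells with C1q transcripts that passed the same limits on cycling and CD3 genes. The 3295 and 3594 cells that passed these limits with under 10 UMIs of the 4 interferon genes are called the other C1q macrophages. All kept barcodes numbered 19950 of 20407 deposited.

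The study grew MC38 colon carcinoma, an established mouse cell line, under the skin of both flanks of male C57BL/6 mice aged 6 to 8 weeks, and treated the right tumor alone with microwave ablation (MWA) once it measured about 300 mm3. Leukocytes (CD45+) of the left, untreated-flank tumor were taken on day 8 and sequenced with the 10x Genomics v3.1 chemistry, so every value concerns a tumor distant from the heat. The MWA group also received an isotype control antibody, and the MWA plus TIGIT group received an antibody that blocks TIGIT, an inhibitory receptor of T and NK cells, every 3 days from day 1 after MWA, with the number of injections given differently in the labels and the methods. There was 1 library per group, an untreated tumor was not analysed here, the number of mice pooled into each was not stated, and the labels give C57BL/6 as the strain with no genetic alteration named. With no replicate, a difference between the libraries cannot be told apart from a difference between mice, sorts or library preparations. Intervals in parentheses are 95% and cover counting error only. Pairs of values are given in the order MWA and MWA plus TIGIT.

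Type I interferons are secreted when sensors of viral or misplaced nucleic acid are triggered. They bind the receptor made of IFNAR1 and IFNAR2, and the kinases JAK1 and TYK2 then activate STAT2, which works with IRF9 on a DNA motif named the interferon-stimulated response element (ISRE). The genes under such elements restrict viral replication, alter antigen presentation and release chemokines. Interferon-γ uses its own receptor, and the sets of genes induced by both kinds of interferon overlap. In tumors, macrophages with this program are known as a recurrent state.

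Rsad2 encodes viperin, a radical SAM enzyme that makes an antiviral nucleotide, and Ifit1, Ifit2 and Ifit3 encode proteins with tetratricopeptide repeats that bind viral RNA or each other. The 4 genes chose the cells, so their levels are a description and carry no test. Levels are given in CPM, the UMIs of a gene per 1000000 UMIs, both summed over the cells of a group. Rsad2 stood at 1244 and 1328 CPM, against 12.6 and 13.1 CPM in the other C1q macrophages. Ifit1 stood at 369.7 and 454 CPM, against 7.31 and 6.92 CPM in the other C1q macrophages. The levels of Ifit2 were 439 and 494 CPM, against 6.55 and 6.92 CPM in the other C1q macrophages. For Ifit3 they were 659 and 623 CPM, against 9.48 and 9.53 CPM in the other C1q macrophages. In each case the 2 libraries lay close to each other and far from the other C1q macrophages, which the selection fixes. All 4 genes were found together in 54 of 80 cells (67.5%) and 90 of 124 cells (72.6%), and 3 and 2 cells passed on the UMIs of 1 gene. Rsad2 gave 45.9% and 45.8% of the UMIs that selected the cells.

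The promoters of 3 selecting genes and of 2 genes outside the selection, Isg15, a ubiquitin-like modifier, and Cxcl10, a chemokine that draws T cells through the receptor CXCR3, are shown because they carry the ISRE letters through which interferon acts on transcription. Each run is 300 bases on the gene's strand in the RefSeq annotation of GRCm38.p6, from 250 bases before to 50 after the start of transcription, and the capitals mark matches to GAAANNGAAA on either strand. The windows are chr12:26456403-26456702 for Rsad2, chr19:34640639-34640938 for Ifit1, chr19:34583279-34583578 for Ifit3, chr4:156200769-156201068 for Isg15 and chr5:92348840-92349139 for Cxcl10. Those of Rsad2, Isg15 and Cxcl10 are on the minus strand.
Rsad2: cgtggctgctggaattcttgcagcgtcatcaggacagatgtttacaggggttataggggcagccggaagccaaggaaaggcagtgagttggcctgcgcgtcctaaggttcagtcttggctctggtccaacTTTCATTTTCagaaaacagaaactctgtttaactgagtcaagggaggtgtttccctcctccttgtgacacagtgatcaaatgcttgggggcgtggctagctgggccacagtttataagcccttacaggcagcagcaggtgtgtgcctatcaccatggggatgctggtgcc
Ifit1: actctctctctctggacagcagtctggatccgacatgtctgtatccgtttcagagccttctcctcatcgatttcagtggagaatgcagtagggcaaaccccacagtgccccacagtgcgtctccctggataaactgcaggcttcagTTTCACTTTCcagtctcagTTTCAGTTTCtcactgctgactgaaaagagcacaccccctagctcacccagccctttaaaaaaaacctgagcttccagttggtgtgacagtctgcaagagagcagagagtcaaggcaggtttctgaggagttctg
Ifit3: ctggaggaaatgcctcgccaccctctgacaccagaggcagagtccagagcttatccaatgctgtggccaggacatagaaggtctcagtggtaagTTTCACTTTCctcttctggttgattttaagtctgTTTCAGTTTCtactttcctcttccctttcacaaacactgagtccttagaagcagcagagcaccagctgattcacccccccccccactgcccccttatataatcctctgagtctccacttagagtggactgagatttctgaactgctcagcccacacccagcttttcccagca
Isg15: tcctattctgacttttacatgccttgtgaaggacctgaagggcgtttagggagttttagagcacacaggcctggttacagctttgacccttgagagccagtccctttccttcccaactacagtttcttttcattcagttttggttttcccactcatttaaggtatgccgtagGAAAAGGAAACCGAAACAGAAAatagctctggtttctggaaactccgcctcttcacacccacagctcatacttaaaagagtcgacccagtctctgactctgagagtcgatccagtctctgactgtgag
Cxcl10: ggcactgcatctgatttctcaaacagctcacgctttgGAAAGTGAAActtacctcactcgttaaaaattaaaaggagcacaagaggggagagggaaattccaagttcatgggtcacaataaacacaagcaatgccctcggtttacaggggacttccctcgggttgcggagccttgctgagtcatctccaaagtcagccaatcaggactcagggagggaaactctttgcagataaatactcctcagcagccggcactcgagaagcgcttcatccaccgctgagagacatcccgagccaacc
The match began 120 bases before the start in Rsad2 and 213 bases before it in Cxcl10. Ifit1 held 2 matches, 104 and 85 bases before the start, and Ifit3 held 2 at 156 and 122. In Isg15, 3 overlapping matches began 78, 72 and 66 bases before the start. The windows of Ifit2, Cmpk2, Irf7, Cxcl9 and Ifnb1 held no match to these letters. Of 65 type I interferon effector genes outside the selection with a window, 32 (49.2%) held a match, and of 13 interferon-γ induced GTPase genes and relatives with a window, 10 (76.9%) did. The share was 6.30% of 2064 genes measured in the cells and 3.99% of all 27025 genes with a window. A second motif, TTCNNNGAA, named the gamma-activated site, was present in 16.9% of the effector windows and in 6 of the 13 interferon-γ list windows (46.2%). Its share was 7.99% of the genes measured in the cells and 9.55% of all genes with a window. The motifs share the letters GAA, and a match is only a run of letters.

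The label was checked against macrophage genes that the selection did not use. Apoe stood at 11638 and 15156 CPM, against 14465 and 18203 CPM in the other C1q macrophages, and Csf1r, the receptor of the macrophage growth factor CSF1, at 534 and 539 CPM, against 618 and 621 CPM in the other C1q macrophages. Adgre1, which encodes F4/80, was at 218 and 229 CPM, against 252 and 265 CPM in the other C1q macrophages. The lysozyme gene Lyz2 was at 12062 and 10658 CPM, against 14541 and 16554 CPM in the other C1q macrophages. So the cells held macrophage transcripts at levels of the same order as the other C1q macrophages. The C1q genes summed to a median of 101.5 and 122.5 UMIs per cell, with ranges of 12 to 403 and 10 to 483. T cells, which should lack C1q, held a median of 1 UMI and at most 9. At least 10 UMIs of the 4 interferon genes were found in 0.590% and 1.10% of these T cells, at median depths of 3610 and 3760 UMIs. The interferon-induced macrophages had medians of 9194.5 and 10519 UMIs, and the other C1q macrophages 8210 and 10084.

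Marker lists of other cell types were summed in the selected cells. The 12 listed T cell genes summed to 138 and 131 CPM, of which Il7r, also transcribed in macrophages here, gave 99.1 and 101 CPM. In the other C1q macrophages the list summed to 68.2 and 59.5 CPM. In T cells the same list summed to 4758 and 5328 CPM. The NK cell list summed to 6.70 and 28.3 CPM against 27.3 and 15.2 CPM in the other C1q macrophages. In the MWA plus TIGIT library 1 selected cell held 29 of these UMIs. The B cell list summed to 34.8 and 49.98 CPM against 49.1 and 50.2 CPM, and the dendritic cell list to 26.8 and 23.1 CPM against 39.1 and 36.3 CPM, with Flt3, Xcr1 and Clec9a at 0 in the selected cells. The T cell sum was thus higher in the selected cells in both libraries, and the NK cell sum lower in 1 library and higher in the other. The 7 listed genes of plasmacytoid dendritic cells summed to 230.4 and 197 CPM against 129 and 143 CPM, most of it from Tcf4 at 147 and 174 CPM, and the defining marker Siglech was at 0 in both libraries. The list of tumor and stromal genes summed to 8.04 and 9.70 CPM with 7 of its 12 genes at 0 in each library. The neutrophil list summed to 28.1 and 251 CPM, against 71.8 and 47.9 CPM, and 1 cell of the MWA plus TIGIT library held 167 of these UMIs. Whether RNA of these cell types had a part in the results was not tested, and Ly6g, a defining neutrophil marker, was at 0. Of 113 and 172 kept cells past both 10-UMI limits, 26 in each library were left out for a CD3 UMI and 9 and 26 as cycling, with 2 and 4 left out on both counts. A further 53 and 94 kept barcodes held at least 10 UMIs of the 4 interferon genes with fewer than 10 of C1q. The libraries shared 34 kept barcode sequences, and 1 interferon-induced macrophage carried a barcode also present in the other library.

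The level of the selecting genes had no gap at the threshold. Of the C1q macrophages, 83.7% and 79.8% held no UMI of the 4 genes. Just outside the threshold, 28 and 41 cells held 7 to 9 UMIs, and just inside, 23 and 24 cells held 10 to 12. Isg15 was at 531 and 647 CPM in the cells just outside and at 778 and 626 CPM in those just inside, and Cxcl10 at 354 and 689.9 CPM outside and 204 and 278 CPM inside. These genes did not step up together at the threshold, and the cells form a range with a boundary set by count. The plot of UMIs of the selecting genes shows this range.

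**Figure D1:**
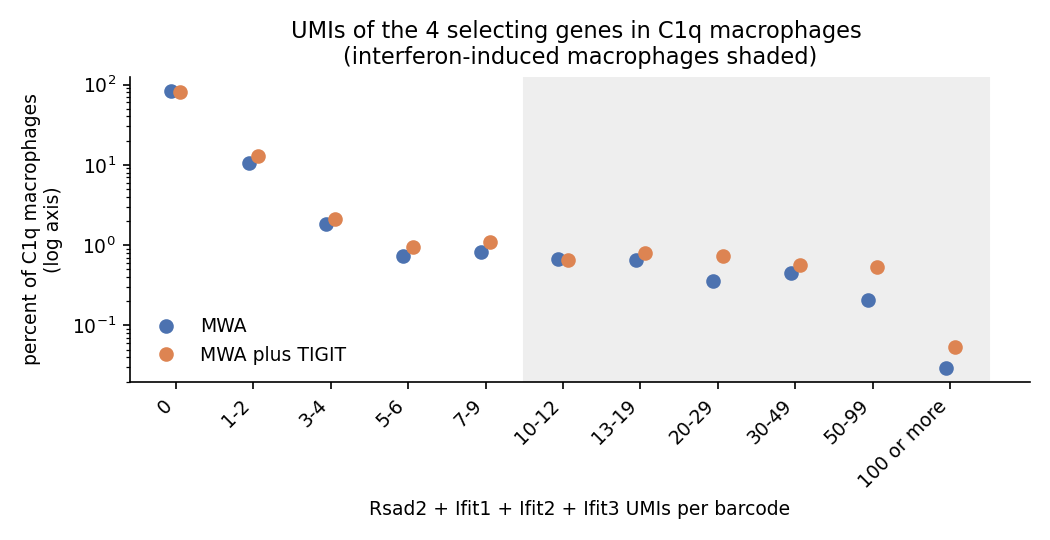
Percent of C1q macrophages (log axis) by their summed UMIs of Rsad2, Ifit1, Ifit2 and Ifit3, 1 point per library and class. The shaded classes, 10 UMIs and over, are the 80 and 124 interferon-induced macrophages, and the percentages fall from 83.7% and 79.8% at 0 UMIs to 0.681% and 0.646% at 10 to 12 UMIs.

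Interferon-induced macrophages made up 80 of 3375 C1q macrophages in the MWA library, which is 2.37% (1.88 to 2.94). In the MWA plus TIGIT library they were 124 of 3718, or 3.34% (2.78 to 3.96). The share was higher with anti-TIGIT by 0.965 percentage points (0.186 to 1.74), a difference beyond counting error with this threshold but without a replicate. Among the strongest cells, with at least 50 UMIs of the 4 genes, there were 8 (0.237%) and 22 (0.592%). The C1q macrophages of the MWA plus TIGIT library were also deeper. With each barcode thinned to 5000 UMIs the shares were 1.38% and 2.26%, a difference of 0.885 points, and with a threshold of 10 UMIs per 10000 they differed by 0.647 points (−0.183 to 1.47), an interval that spans 0, so that the difference was not beyond counting error on that scale. When only barcodes with at most 5000 UMIs entered, as one reading of the study's filter has it, 9 and 6 cells were left and the difference was −0.219 points.

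Across all genes, the cells were set against the other C1q macrophages of their own library. Of 2567 genes that in each library had at least 50 CPM in either cell group and 20 UMIs over both, 126 (4.91%) were at least 2-fold higher in both libraries and 1 (0.039%) was at least 2-fold lower in both. The 126 include the 4 selecting genes and number 122 without them. These cells were chosen on genes of the same transcriptome, so the contrast has no test and the counts are a description. Over all measured genes the median log2 ratio was −0.07 and −0.06, and it became 0.04 and 0.04 with RLE scaling factors, a shift that turns the sign of ratios just below 0, such as those of Ctss in the MWA library and of F13a1 in the MWA plus TIGIT library. With at most 5000 UMIs per barcode, which left 9 and 6 cells, the ratios of Ccl4, Ccl12, Hilpda, Cd69 and Ptgs1 turned their sign in 1 library and that of Il7r in both. Of the 126 genes, 88 were in the lists examined here, and the rest included Nt5c3, Ly6a and Slamf7. The share of all genes higher or lower in both libraries by any size was not computed. The counts by direction alone in the lists below are therefore a description without a background.

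Type I interferon effectors held the largest ratios outside the selection. Of 80 listed genes, 60 were measured, and 54 of these were at least 2-fold higher in both libraries, where the background is 4.91% of all genes. Their median log2 ratios were 2.31 and 2.24. Isg15 stood at 1041 and 1137 CPM, against 64.0 and 66.1 CPM in the other C1q macrophages, log2 ratios of 4.02 (3.90 to 4.15) and 4.11 (4.01 to 4.20). Cmpk2, a mitochondrial nucleotide kinase whose gene lies beside Rsad2, was at 209 and 207 CPM, against 2.42 and 3.39 CPM in the other C1q macrophages, with log2 ratios of 6.43 (6.01 to 6.87) and 5.93 (5.62 to 6.24). The ratios were 6.74 and 6.27 for Ifit3b and 6.88 and 6.44 for Ifit1bl1, neighbours of Ifit3 and Ifit1 that are close in sequence to them, so their counts may be shared in part. Oasl1, a 2′-5′ oligoadenylate synthetase-like protein that restrains the translation of Irf7, had ratios of 3.82 and 4.004. The antiviral exonuclease gene Isg20 had 3.16 and 2.86, and Ifi44 had 3.65 and 3.28. In each of these genes the difference between the cell groups was larger than that between the libraries.

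Some listed effectors had smaller ratios or were not higher. Ifitm3, which blocks the fusion of viruses with endosomes and is transcribed in macrophages in general, was at 3069 and 2810.2 CPM, against 1117 and 1084 CPM in the other C1q macrophages, log2 ratios of 1.46 and 1.37. Ifitm2 had ratios of −0.14 and −0.14 and Ifi27 of −0.74 and −0.29, the only 2 of the 60 that were lower in both libraries. Lgals9, which encodes galectin-9, had ratios of 0.81 and 0.93, and Ifi27l2a 0.71 and 0.83, both short of 2-fold. The absent-in-melanoma-like genes on chromosome 1 encode proteins that bind DNA in the nucleus. All 9 measured genes from Ifi206 to Ifi205 there were at least 2-fold higher in both libraries. Aim2, a gene of this kind on the sensor list, was not among the genes past 2-fold in both. Ifi205 was at 133 and 201 CPM, against 7.31 and 9.56 CPM in the other C1q macrophages, with ratios of 4.18 and 4.40, and Ifi206, Ifi209 and Ifi213 had ratios of 3.96 and 3.85, 3.39 and 3.25 and 3.68 and 3.595. Members of this family share stretches of sequence, so the split of counts among them is uncertain.

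Of the 126 genes at least 2-fold higher, 36 were in 7 stretches where 3 or more followed each other within 500000 bases. The stretch with the most genes was chr1:173468485-174031810 (GRCm38), where all 9 measured genes, from Ifi206 to Ifi205, were among them. On chr19:34473778-34650009, 6 of 7 measured genes were among them, namely Ch25h, which makes 25-hydroxycholesterol, and Ifit2, Ifit3, Ifit1bl1, Ifit3b and Ifit1, of which Ifit1, Ifit2 and Ifit3 are selecting genes. On chr11:82951349-83664683 they were 8 of 13, the Schlafen genes Slfn5, Slfn9, Slfn8, Slfn2, Slfn1 and Slfn4 with the chemokine genes Ccl5 and Ccl4. The others were Gbp5, Gbp7, Gbp3 and Gbp2 on chromosome 3, Sp110, Sp140 and Sp100 on chromosome 1, Phf11a, Phf11b and Phf11d on chromosome 14, and Oas3, Oas1a and Trafd1 on chromosome 5. Many of these are gene families that arose by duplication, and no share expected for other genes was computed. The ends of each stretch were set by genes past 2-fold, so measured genes just beyond them do not enter these counts.

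Listed sensors and transcription factors of the interferon pathway differed by kind, and whether they act before or after the effectors in these cells was not tested. Irf7, the transcription factor that amplifies interferon production, was at 588 and 579 CPM, against 82.6 and 83.7 CPM in the other C1q macrophages, log2 ratios of 2.83 (2.68 to 2.98) and 2.79 (2.67 to 2.90). The RNA sensor genes Ddx58 (RIG-I) and Ifih1 (MDA5) had ratios of 2.77 and 2.52 and 2.88 and 2.75, and Zbp1, a sensor of left-handed nucleic acid, 2.06 and 1.85. Tmem173, which encodes STING, had ratios of −0.28 and −0.17. Of the 6 measured genes of the sensor list, which includes Irf7, 4 were at least 2-fold higher in both libraries. Stat2, which is also among the listed effectors, was at 102 and 96.2 CPM, log2 ratios of 2.22 and 2.07. In the list of receptors and signalling the medians over 11 measured genes were 0.12 and 0.09. The receptor genes stood near the other C1q macrophages, Ifnar1 with ratios of −0.17 and −0.21 and Ifnar2 with 0.12 and 0.04, while Ifngr1, a chain of the interferon-γ receptor, was lower at −0.74 and −0.78. Of the negative regulators, Usp18, which removes ISG15 and blocks IFNAR2, was at 179.5 and 194 CPM, against 10.3 and 12.5 CPM in the other C1q macrophages, ratios of 4.13 and 3.96. Socs3, an inhibitor of JAK kinases, had ratios of −0.61 and −0.64.

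All 10 measured genes of the list of interferon-γ induced GTPases and related genes were at least 2-fold higher in both libraries, with median log2 ratios of 1.70 and 1.87. The guanylate-binding protein gene Gbp5, which acts in the inflammasome, had ratios of 2.54 and 2.22, and Iigp1, an immunity-related GTPase that attacks the vacuoles of parasites, 1.95 and 2.07. Acod1, the enzyme that makes itaconate, stood at 162 and 178 CPM, against 43.6 and 51.9 CPM in the other C1q macrophages, ratios of 1.89 and 1.78. These genes also respond to type I interferon, and which interferon the cells had met was not tested. The scatter of ratios in the 2 libraries and the plot of listed genes show how these groups compare.

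**Figure D2:**
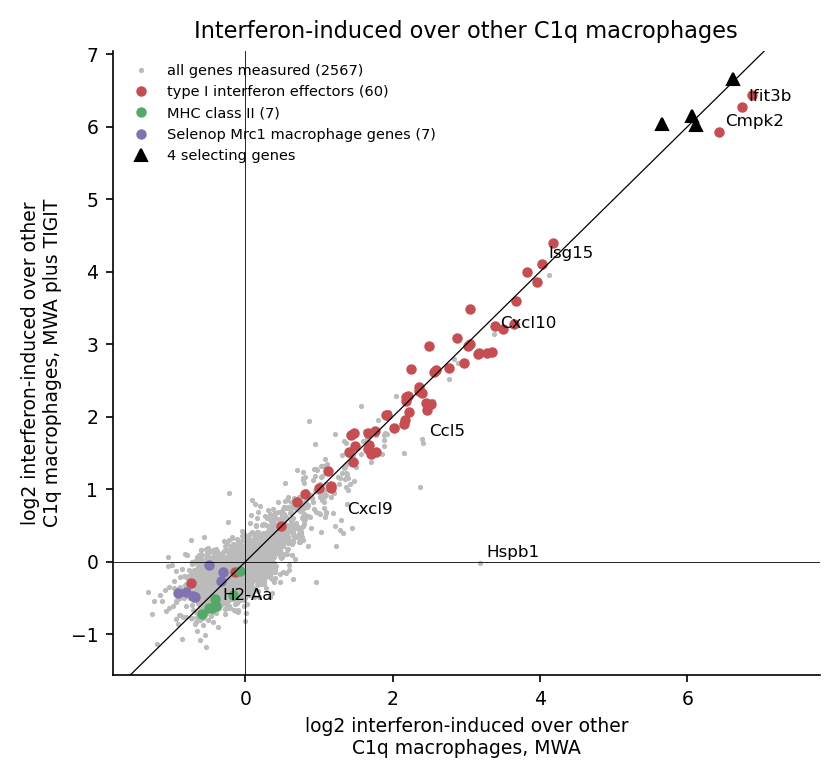
Log2 ratio of interferon-induced over other C1q macrophages for 2567 genes, MWA on the x axis and MWA plus TIGIT on the y axis, 1 point per gene, with 3 lists in color and the 4 selecting genes as triangles. Nearly all of the 60 type I interferon effectors lie to the upper right, near the line of equal ratios, while the 7 MHC class II and 7 Selenop Mrc1 macrophage genes lie below 0 on both axes. Hspb1, high in the MWA library alone, lies farthest from the line.

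**Figure D3:**
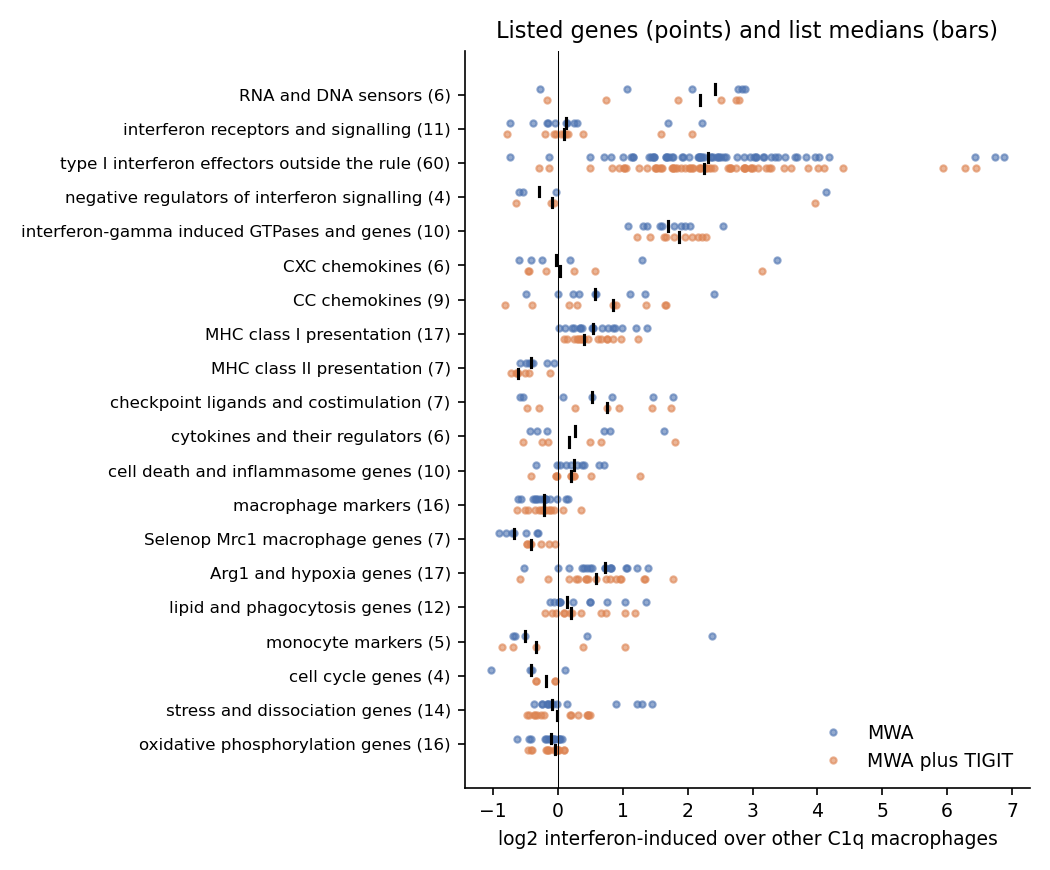
Log2 ratio of interferon-induced over other C1q macrophages for each measured gene of the lists (points, by library) with the list median (bar), and the number of genes in parentheses. The effector, sensor and interferon-γ lists have their medians between 1.70 and 2.42, and the other lists shown, which leave out markers of other cell types, between −0.68 and 0.85.

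Chemokine genes did not differ as a family. Cxcl10 was at 924 and 938 CPM, against 88.8 and 107 CPM in the other C1q macrophages, log2 ratios of 3.38 (3.26 to 3.503) and 3.14 (3.04 to 3.23), the only 1 of 6 measured CXC genes past 2-fold in both libraries. Cxcl9, the other main ligand of CXCR3, was at 851 and 710.2 CPM, against 346 and 478 CPM in the other C1q macrophages, ratios of 1.30 and 0.57, and without the 1 cell with most of its UMIs in each group these were 0.70 and 0.23. The neutrophil chemokine gene Cxcl2 had ratios of −0.25 and −0.46. Of 9 measured CC genes, Ccl5, Ccl4 and Ccl12 were past 2-fold in both libraries. Ccl5, which draws T cells, NK cells and dendritic cells, was at 706 and 471 CPM, against 133 and 151 CPM in the other C1q macrophages, ratios of 2.41 and 1.64, but 1 cell held 63.2% of its UMIs in the MWA library and 1 cell 22.7% in the other, and without them the ratios were 1.01 and 1.37. Ccl12 and Ccl7, monocyte chemokines that signal through CCR2, had ratios of 1.11 and 1.35 and 0.58 and 0.90, and Ccl2, of the same kind, 0.32 and 0.28. Ccl8 had −0.01 and −0.82. Without the 1 cell with most UMIs in each group, Ccl12 had 0.87 and 1.23 and Ccl4 1.11 and 1.40. In the MWA plus TIGIT library, 485 of the 987 Ccl4 UMIs were in the 9 cells that held an Ifnb1 UMI, described below. The selected cells without an Ifnb1 UMI held Ccl4 at 708 and 395 CPM, against 347 and 233 CPM in the other C1q macrophages.

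After each cell was thinned to 3000 UMIs, which left out 2 interferon-induced macrophages per library, 223 and 182 other C1q macrophages and 1418 and 1146 T cells, the shares of cells with a UMI could be compared across depths. A Cxcl10 UMI was found in 52.6% and 49.2% of the interferon-induced macrophages, 8.24% and 8.00% of the other C1q macrophages and 7.21% and 5.51% of the T cells. For Isg15 the shares were 82.1% and 78.7% of the interferon-induced macrophages, 12.7% and 13.2% of the other C1q macrophages and 16.4% and 17.3% of the T cells. A Cmpk2 UMI was found in 38.5% and 35.2% of the interferon-induced macrophages, 0.749% and 1.03% of the other C1q macrophages and 2.26% and 2.29% of the T cells. These genes were thus found in far more of the selected cells than of T cells, where free RNA and the T cells' own transcription cannot be told apart. A Cxcl9 UMI was found in 25.6% and 25.4% of the interferon-induced macrophages, 18.6% and 20.4% of the other C1q macrophages and 2.38% and 2.56% of the T cells. Cxcl9 was thus not particular to the interferon-induced macrophages, and most C1q macrophages of either kind held no UMI of it at this depth. Ccl5 was found in 15.4% and 28.7% of the interferon-induced macrophages, 14.2% and 13.8% of the other C1q macrophages and 69.1% and 71.4% of the T cells. In the MWA library the Ccl5 share was thus close to that of the other C1q macrophages, and T cells hold this gene in most cells. Unthinned, the shares in the interferon-induced macrophages were 63.8% and 64.5% for Cxcl10, 93.8% and 98.4% for Isg15, 56.2% and 60.5% for Cmpk2, 33.8% and 37.1% for Cxcl9 and 33.8% and 41.1% for Ccl5.

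Genes of antigen presentation differed by class, though counts by direction alone had no share of all genes beside them. All 17 measured genes of the MHC class I pathway were higher in both libraries, but 1 was past 2-fold, H2-T22, a nonclassical class I gene, at 145 and 144 CPM, against 56.2 and 61.4 CPM in the other C1q macrophages, ratios of 1.36 and 1.23. Tap1, the peptide transporter, had ratios of 0.98 and 0.96, and B2m, the light chain, 0.34 and 0.35. For H2-K1, the classical heavy chain, they were 0.10 and 0.14. By contrast, all 7 measured genes of the class II list were lower in both libraries, none past 2-fold, although Ctss turned with RLE factors in the MWA library, with medians of −0.42 and −0.62. H2-Aa stood at 1941 and 1781 CPM, against 2551 and 2733 CPM in the other C1q macrophages, ratios of −0.39 and −0.62, and Cd74, the invariant chain, had ratios of −0.45 and −0.64. In single cells, 24 of 80 and 34 of 124 (27.4%) held at least 50 UMIs of H2-Aa, H2-Ab1 and H2-Eb1 together, against 37.0% and 43.6% of the other C1q macrophages.

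Among ligands of T cell receptors, Cd274, which encodes PD-L1, was at 104 and 126 CPM, against 30.7 and 37.6 CPM in the other C1q macrophages, log2 ratios of 1.77 (1.41 to 2.10) and 1.75 (1.51 to 1.98). Cd40, which licenses myeloid cells on contact with T cells, had ratios of 1.46 and 1.45 and Cd86, a ligand of CD28, 0.82 and 0.94. Pvr, Nectin2 and Nectin3 encode the ligands of TIGIT and none reached the limits for a ratio. Their summed UMIs in the selected cells were 20 and 15 UMIs for Pvr, 3 and 8 UMIs for Nectin2 and 0 and 0 UMIs for Nectin3, too few for a level at this depth. Il1rn, which encodes the antagonist of the interleukin-1 receptor, was at 199.6 and 248 CPM, against 64.5 and 71.2 CPM in the other C1q macrophages, ratios of 1.63 and 1.80. Il1b itself had ratios of −0.33 and −0.54. Of the 10 measured genes of cell death and inflammasomes none was past 2-fold in both libraries.

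The cells were further compared in genes that divide tumor macrophages into states. Arg1, the arginine-degrading enzyme of suppressive macrophages, was at 1283 and 1851 CPM, against 1284 and 2053 CPM in the other C1q macrophages, ratios of 0.00 and −0.15. At least 10 Arg1 UMIs were present in 31 of 80 cells (38.8%) and 66 of 124 (53.2%), against 33.9% and 51.4% of the other C1q macrophages, so the state was found on both sides of the Arg1 boundary. Of the 17 measured genes of the list of Arg1 and hypoxia genes, 15 were higher in both libraries, and Hilpda, Il7r and Mmp12 were past 2-fold. Hilpda, which coats lipid droplets under hypoxia, had ratios of 1.07 and 1.32, Mmp12, the macrophage elastase, 1.21 and 1.77, and Il7r 1.38 and 1.34. Plin2, another coat of lipid droplets, had 1.04 and 1.18, and Abcg1, a cholesterol exporter, 1.36 and 1.03. Without the cell with most UMIs in each group, Hilpda had 0.84 and 1.24, Mmp12 0.92 and 1.35 and Plin2 0.98 and 1.10. These genes were thus short of 2-fold in the MWA library, while Il7r, with 1.19 and 1.28, stayed past it in both. All 7 measured genes of the Selenop Mrc1 list, typical of resident-like macrophages, were lower in both libraries, although F13a1 turned with RLE factors in the MWA plus TIGIT library. Selenop was at 317 and 381 CPM, against 518 and 529.7 CPM in the other C1q macrophages, and Mrc1, the mannose receptor, at 149 and 186 CPM, against 238 and 261 CPM in the other C1q macrophages, with ratios of −0.71 and −0.47 and −0.68 and −0.48. At least 10 UMIs of Selenop and Mrc1 together were present in 11 cells (13.8%) and 23 cells (18.5%), against 22.2% and 31.6% of the others.

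General macrophage markers were also slightly lower, 14 of 16 in both libraries with medians of −0.22 and −0.21. Cx3cr1, the fractalkine receptor, had ratios of −0.57 and −0.51 and Lyz2 −0.27 and −0.64, while Cd68 had 0.13 and 0.35. CPM are shares of a total, and the listed effectors summed to 20575 and 21114 CPM against 6936 and 7057 CPM in the others. Of the monocyte genes, Ccr2 had ratios of −0.69 and −0.86 and Fn1, which encodes fibronectin, −0.67 and −0.70. Plac8, a monocyte gene that interferon is known to induce, had 2.37 and 1.03, and 2.09 and 0.41 without the 1 cell with most UMIs in each group. Of 14 stress and dissociation genes none was past 2-fold in both libraries, and their medians were −0.10 and −0.02, but the heat shock genes Hspa1a and Hspa1b had 1.29 and 0.44 and 1.45 and 0.46. Mitochondrial transcripts made up a median of 0.864% and 0.818% of the UMIs of a cell, against 0.925% and 0.980% in the others. Ly6c2 is a marker of inflammatory monocytes, but 54.1% and 55.8% of thinned T cells also held it. At least 3 of its UMIs were present in 4 of 80 cells and 8 of 124 (6.45%), against 1.31% and 2.73% of the others.

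Outside the lists, the 10 genes with the largest ratios in the weaker library were Nt5c3, Tmem171, Mitd1, Ly6a, Cd69, Slamf7, Zup1, Trafd1, Dck and Calhm6. Nt5c3, a nucleotidase, was at 84.4 and 94.7 CPM, against 13.7 and 15.3 CPM in the other C1q macrophages, ratios of 2.62 and 2.63. Ly6a, which encodes the surface protein Sca-1, was at 488 and 533 CPM, against 129.6 and 157 CPM in the other C1q macrophages, ratios of 1.91 and 1.76, and it is also a T cell gene, present in 58.5% and 68.3% of thinned T cells. Trafd1, a negative regulator of Toll-like receptor signalling, had ratios of 1.65 and 1.69. Cd69, a lymphocyte activation antigen that is also found on macrophages, was at 109.8 and 65.6 CPM, but 1 cell held 37.8% of its UMIs in the MWA library. The 1 gene at least 2-fold lower in both libraries was Ptgs1, which encodes cyclooxygenase-1, at 36.2 and 41.8 CPM, against 83.1 and 91.8 CPM in the other C1q macrophages, log2 ratios of −1.20 (−1.81 to −0.66) and −1.14 (−1.54 to −0.76). Next lowest were Lyl1, a transcription factor of blood cells, with ratios of −0.86 and −1.06, and Ypel3 with −0.91 and −0.86.

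Ifnb1, which encodes interferon-β, was the interferon gene with the most UMIs in these cells. It lies at chr4:88522025-88522774 (GRCm38) on the minus strand. An Ifnb1 UMI was present in 5 of 80 interferon-induced macrophages (6.25%, 2.06 to 13.99) and in 9 of 124 (7.26%, 3.37 to 13.3). Among the other C1q macrophages it was present in 6 of 3295 (0.182%, 0.0669 to 0.396) and 10 of 3594 (0.278%, 0.134 to 0.511). The shares were thus higher in the selected cells in both libraries by more than the counting intervals, though the selection was made on genes that interferon-β induces. In UMIs there were 18 and 17 in the selected cells, 19 and 25 in the others, and 0 and 0 in T cells. The most that 1 selected cell held was 6 and 4. Of the 21 listed interferon genes, 19 and 20 were at 0 in the selected cells, including every Ifna gene, and the other gene found was Ifng with 3 UMIs in the MWA library.

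The cells that held an Ifnb1 UMI were compared with the rest of the interferon-induced macrophages, a split chosen after the values were seen and with 5 and 9 cells. They had medians of 25 and 28 UMIs of the selecting genes, which chose the cells, against 16 and 21 in the rest. Their effector transcripts outside the selection were fewer, with medians of 82.4 and 130 UMIs per 10000, against 222 and 204. In the MWA library the 5 cells held 32.8, 71.6, 82.4, 115 and 154 UMIs of these effectors per 10000, all below the median of the rest. In the MWA plus TIGIT library the lowest of the 9 held 54.7, the median cell 130 and the highest 330, and 7 were below the median of the rest. Of 63 effector genes with enough UMIs, 54 were lower in both libraries in the Ifnb1-holding cells and 2 were higher. Of all 258 listed genes with enough UMIs, 156 were lower in both and 44 higher. Cmpk2, the neighbour of Rsad2, was at 0 against 218 CPM in the MWA library and 73.0 against 214 CPM in the MWA plus TIGIT library, and a value of 0 rests on 5 cells.

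Ccl4, which encodes the chemokine MIP-1β, was high in the same cells. It was at 4914 against 708 CPM in the MWA library and 7078 against 395 CPM in the MWA plus TIGIT library, and it was found in 5 of 5 and 8 of 9 cells, with at least 10 UMIs in 4 and 7 of them. In the rest it was found in 43 of 75 and 50 of 115 cells, with at least 10 UMIs in 9 and 17. The other C1q macrophages with an Ifnb1 UMI held Ccl4 at 4026 and 1505 CPM. Ccl3, which encodes MIP-1α, was at 229 against 115 CPM in the MWA library and 963 against 69.2 CPM in the MWA plus TIGIT library. Plin2 was at 1179 against 409 CPM in the MWA library and 846 against 480.4 CPM in the MWA plus TIGIT library, and Fabp5, a fatty acid binding protein, at 852 against 360.4 CPM in the MWA library and 1357 against 396 CPM in the MWA plus TIGIT library. Lyz2 was lower, at 2752 against 12459 CPM in the MWA library and 7823 against 10811 CPM in the MWA plus TIGIT library. The Ifnb1-holding cells were also shallower, with medians of 6151 and 7692 UMIs against 9667 and 10703, and of 1428 and 1664 genes against 2362 and 2608. Their mitochondrial share was 0.889% and 0.650%, against 0.862% and 0.835%. The part of depth in these differences was not tested. The 6 and 10 other C1q macrophages with an Ifnb1 UMI held medians of 0.5 and 0 UMIs of the selecting genes. The plot of effectors against selecting genes shows the Ifnb1-holding cells one by one.

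**Figure D4:**
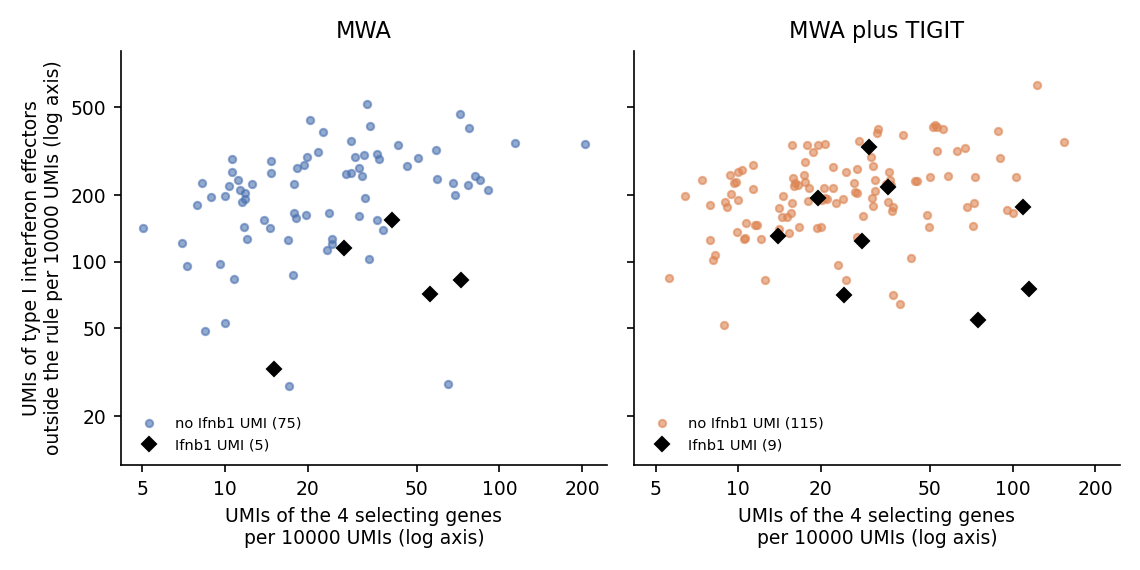
Each point is 1 interferon-induced macrophage, with its UMIs of the 4 selecting genes per 10000 UMIs on the x axis and its UMIs of type I interferon effectors outside the selection per 10000 on the y axis (both log axes), by library. The 5 and 9 cells with an Ifnb1 UMI (diamonds) mostly sit below the median of the rest, with medians of 82.4 and 130 effector UMIs per 10000 against 222 and 204 in the rest.

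To see what varied among the cells, they were ranked by UMIs of the selecting genes per 10000 and divided into 3 ranges, low, middle and high, at 16.4 and 32.0, which gave 27, 25 and 28 cells in the MWA library and 41, 43 and 40 in the MWA plus TIGIT library. Cxcl10 stood at 166, 501 and 2501 CPM in the low, middle and high ranges of the MWA library and at 439.9, 817 and 1725 CPM in those of the other. Isg15 was at 733, 1052 and 1494 CPM and at 708, 963 and 1891 CPM. Cd274 was at 47.0, 121 and 175 CPM and at 64.5, 109.8 and 225 CPM. In both libraries these genes outside the selection were lowest in the low range and highest in the high range. Of 62 effector genes, 54 were higher in the high than in the low range in both libraries, 13 of them at least 2-fold, and 1 was lower in both. The medians of their log2 ratios were 0.81 and 0.69. All 11 genes of the interferon-γ list were higher in the high range in both libraries. The lists that hold Cxcl10 and Cd274 did not rise as a whole. Of 6 CXC genes 2 were higher and 3 lower in both libraries, and of 7 checkpoint and costimulation genes 3 were higher and 2 lower. Ratios between the ranges were computed for listed genes only, so no share of all genes stands beside these counts or those that follow.

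Macrophage genes ran the other way within the cells. Of 16 measured macrophage markers, 14 were lower in the high range in both libraries, with median log2 ratios of −0.30 and −0.34. Cx3cr1 was at 507, 519 and 251 CPM and at 596, 419 and 276 CPM. The median depth also fell from the low to the high range, from 11240 through 8176 to 6726.5 UMIs in the MWA library and from 12112 through 9224 to 8794.5 UMIs in the other. The ranges were made on a count per total UMIs, so depth and level cannot be told apart here.

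The question between the libraries is what anti-TIGIT added to MWA. Of 2603 genes measured in the interferon-induced macrophages, 103 (3.96%) were at least 1.5-fold higher and 57 (2.19%) at least 1.5-fold lower in the MWA plus TIGIT library. With TMM factors these were 81 and 85, and with RLE factors 76 and 89, so the excess of higher genes depends on the scaling. The selecting genes Rsad2 and Ifit1 had log2 ratios, MWA plus TIGIT over MWA, of 0.09 (−0.02 to 0.21) and 0.29 (0.09 to 0.51), which are a description because both libraries' cells were chosen on them. For Isg15, outside the selection, it was 0.13 (0.00 to 0.25), and for Cxcl10 0.02 (−0.11 to 0.16). Of 63 effector genes, 2 were at least 1.5-fold higher and 1 lower, with a median of 0.04 that is close to the 0.05 of all measured genes. Ifi205 had 0.60 (0.27 to 0.95), against 0.39 in the other C1q macrophages, and Rtp4, short of 1.5-fold, had 0.51 (0.18 to 0.86) against 0.02.

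Larger ratios were found in macrophage state genes, mostly shared with the other C1q macrophages. For Mmp12 the levels were 127 and 273 CPM and the log2 ratio 1.10 (0.77 to 1.44), against 0.55 in the other C1q macrophages. Slc7a2, a transporter of arginine, had 0.94 (0.47 to 1.43) against 1.00, and Arg1 0.53 (0.42 to 0.64) against 0.68. Cbr2 and F13a1 of the Selenop Mrc1 list had 1.09 and 0.87, against 0.60 and 0.42. Of the chemokines, Ccl2 had −0.55 (−0.68 to −0.42) against −0.51, and Cxcl2 −0.64 (−0.79 to −0.49) against −0.43, both lower with anti-TIGIT in each cell group. Cxcl9 and Ccl5 had −0.26 and −0.58 against 0.47 and 0.18, but without the 1 cell with most UMIs in each library the former became 0.01 and 0.49. Ly6c2 was found at 28 and 122 UMIs, a ratio of 1.28 (0.68 to 1.93), against 0.59. Only 8.75% and 12.1% of the interferon-induced macrophages held it. Without the top cell of each library 18 and 79 UMIs were left, a ratio of 1.29. It is also a T cell gene, at 683 and 985 CPM in T cells.

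Single cells decided several of the largest ratios. Map3k12, a kinase of neuronal stress signalling, had 8 and 155 UMIs, and 98.1% of the latter were in 1 cell. Gzmc, a granzyme gene, had 2 and 81 UMIs, and 1 cell held all of the latter. S100a8 and S100a9, neutrophil alarmins, had log2 ratios of 4.78 and 4.83, with 60.8% and 52.3% of their MWA plus TIGIT UMIs in 1 cell. Ctla2a had 2.04 (1.28 to 2.89), with 33.1% of its MWA plus TIGIT UMIs in 1 cell, and 1.65 without the top cell of each library. It is also a T cell gene, at 809 and 728 CPM in T cells against 37.0 and 35.2 CPM in the other C1q macrophages. Arl11, a small GTPase, had 1.40 (0.72 to 2.13) and was spread over more cells, with 5.77% of its MWA plus TIGIT UMIs in 1 cell. The lowest was Hspb1, a small heat shock protein, with levels of 431 and 87.3 CPM, a ratio of −2.31 (−2.62 to −2.00) and 55.9% of the MWA UMIs in 1 cell. The stress list had a median log2 ratio of −0.31 in the interferon-induced macrophages and −0.06 in the others, and its part in the other ratios was not tested. The plot of the 2 libraries gives the ratios of 20 genes.

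**Figure D5:**
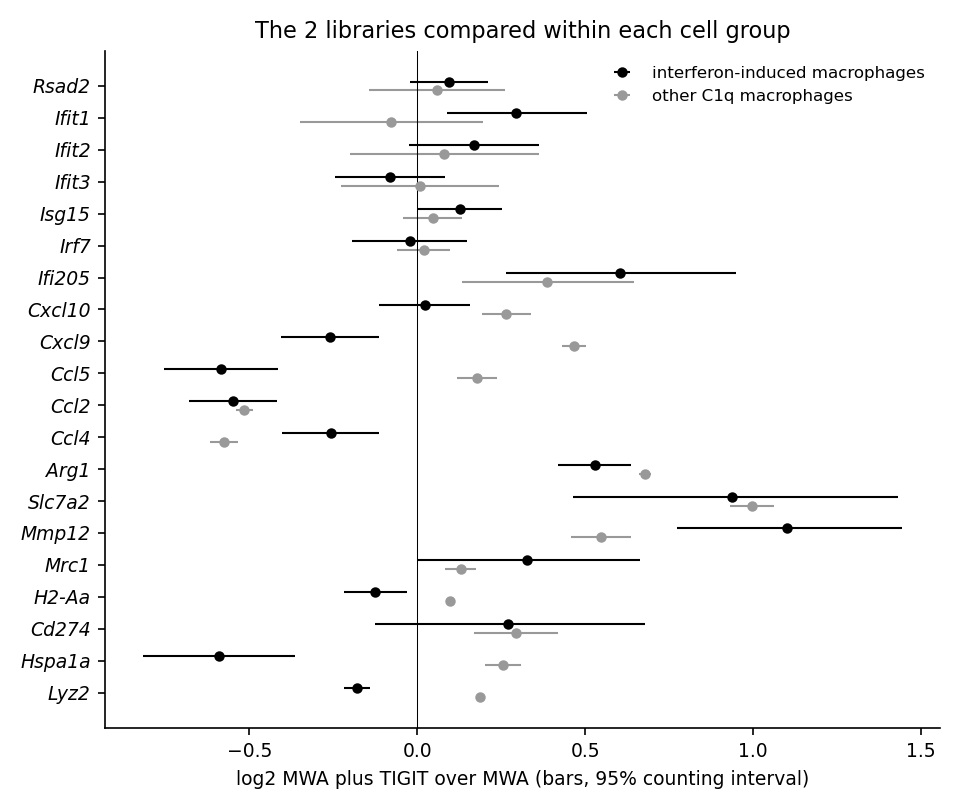
Log2 ratio of MWA plus TIGIT over MWA for 20 genes in the interferon-induced macrophages (black) and in the other C1q macrophages (grey), with 95% counting intervals as bars. In the interferon-induced macrophages Rsad2, Ifit2, Ifit3, Irf7 and Cxcl10 have intervals that span 0, Mmp12, Slc7a2 and Arg1 lie above 0 in both cell groups, Ccl2 below 0 in both, and Cxcl9 and Ccl5 on opposite sides of 0.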

How the data were processed

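CD45+ cells of the left tumor were profiled in 1 library per group. The authors deposited raw UMI counts per gene and cell barcode for 32285 genes, made with Cell Ranger on mm10. The submitters' processing notes give version 6.1.1 and the matrix headers 4.0.0. No later filter had been applied to the 10217 and 10190 deposited barcodes, which held medians of 5627 and 6586 UMIs, and no column was unmapped (0). Here, barcodes under 200 genes or above 10% mitochondrial UMIs were removed, the rule of the opening was applied to raw UMIs, and UMIs were summed per library and cell group. T cells were barcodes with at least 3 CD3 UMIs and fewer than 10 of C1q.

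With 1 library per group no p-value was computed, and called means past 2-fold between cell groups or 1.5-fold between libraries. Ratio intervals were exact conditional binomial, those of shares exact Clopper-Pearson and that of the share difference Newcombe. They cover counting error, which the 746495 and 1340484 UMIs of the selected cells limit. The scripts were tested on simulated data. Doublets were left in, with Scrublet from scanpy 1.11.5 as an alternative. Other alternatives were thresholds, thinning, depth and mitochondrial limits, gene filters, cell weighting, comparison cells, and TMM and RLE factors from edgeR 4.0.16. A limit on other cell types' markers and the removal of the top cell per gene were chosen after seeing the data.

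The members and gene lists were chosen with earlier results of these data known. Named genes were the selecting genes, measured listed genes chosen as the largest changes and most abundant members, and outside the lists the 10 highest and 10 lowest ratios. Mitochondrial, ribosomal, receptor segment, hemoglobin and unnamed-model genes were not named there. Some items are not reported here. Python 3.11.15 and R 4.3.3 were used.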

Additional observations from a re-analysis of the deposited data

Results flagged for a closer look

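The log2 ratio of MWA plus TIGIT over MWA had opposite signs in the interferon-induced macrophages and in the other C1q macrophages for 12 listed or extreme genes, each with a counting interval clear of 0 on both sides. There is 1 library per group and the difference was not tested. The share of all measured genes with such opposite signs was not computed, so whether 12 is many cannot be told. Given as the ratio in the interferon-induced macrophages against that in the others, the chemokine gene Cxcl9 had −0.26 against 0.47, and Ccl5 had −0.58 against 0.18. Without the 1 selected cell with most UMIs in each library they became 0.01 and 0.49, so both turned their sign. The class II gene H2-Aa had −0.12 against 0.10, Lyz2 −0.18 against 0.19, and the osteopontin gene Spp1 −0.18 against 0.28. Plac8 had −0.56 against 0.78, and −0.90 without the top cell.

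Of the 12 genes, 4 encode heat shock proteins. Hspa1a had −0.59 against 0.26, Hspa1b −0.61 against 0.38, Hsp90aa1 −0.30 against 0.12 and Hspb1 −2.31 against 0.89. Dnajb1, another listed heat shock gene, had −0.81 against −0.092 and did not differ in sign. Without the top cell Hspa1a had −0.67 and Hspb1 −1.69. Jun, an immediate early transcription factor, had 0.29 against −0.061, and Cox6c, a subunit of cytochrome c oxidase, 0.17 against −0.027. Heat shock and immediate early genes are also known to respond to tissue dissociation, and its part in these ratios was not tested.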

How the results depend on the processing

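No paired analysis was possible because there is 1 library per group and the labels carry no replicate numbers, and for the same reason no replicate could be left out. The share of interferon-induced cells was higher with anti-TIGIT under every alternative run (0.647 to 1.44 percentage points) except at most 5000 UMIs per barcode, with 9 and 6 cells, where the difference was −0.219. Of 3575 log2 ratios recomputed for named genes, 2900 stayed within the counting interval, 664 moved beyond it and 11 reversed. At most 5000 UMIs reversed Ccl12 (−0.18) in the MWA plus TIGIT library, Ccl4 (−0.70), Hilpda (−0.10), Cd69 (−0.092), Ptgs1 (0.65) and Arl11 (0.054) in the MWA library, and Il7r in both (−0.91 and −0.13). Map3k12 in the MWA plus TIGIT library became −1.19 at a threshold of 20 UMIs, −1.73 thinned to 5000 UMIs and −0.99 without its top cell. The causes were not tested.

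Counts moved most with the gene filter. The 126 genes at least 2-fold higher became 496 with 20 UMIs and no CPM minimum and 4597 with 1 UMI, where small counts pass the fold readily. The 1 gene at least 2-fold lower became 0 at a threshold of 5 UMIs, 7 at 20, 19 thinned, 3 per 10000 UMIs, 2 without Scrublet doublets, 45 at most 5000 UMIs, 4 with equal weight per cell, 3 without the top cell and 139 with either gene filter. The 103 genes higher with anti-TIGIT became 50 at 5 UMIs, 260 at 20, 347 thinned, and 762 and 2271 with the gene filters. The 57 lower became 33, 225, 252, 460 and 3119 in the same order, 102 at most 5000 UMIs, 87 with few markers of other cell types and 89 with RLE factors. Of 826 list medians, 735 stayed the same and 91 moved.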
